A study of Mus musculus with 3 samples.

Results

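Accessible sites deep inside long genes were examined in dopaminergic neurons (DNs) of the mouse midbrain. They were the peaks of the DN list whose centre lay in the body of a protein-coding gene but in no exon, more than 50 kb from the start of every protein-coding transcript, on the 19 autosomes. The rule held for 6126 of 55326 peaks, which is 11.07% of the list (95% exact binomial interval 10.81 to 11.34). The study asked how chromatin topology differs between cell types of the brain and mouse embryonic stem (mES) cells, and measured accessible chromatin in DNs by single-nucleus ATAC-seq (snATAC-seq), in which a transposase cuts open DNA and the cuts are sequenced nucleus by nucleus. DNs came from the midbrain ventral tegmental area (VTA) of male C57Bl/6Nl mice, in 1 library at an age of 7 weeks and 1 at 9 weeks. Nuclei of both libraries were taken from 1 cluster, which the study identified by gene scores of *Th* and checked with other DN markers. They were pooled into 1 peak list, so the list gives no spread between libraries or animals. A bulk ATAC-seq sample of male mES cells belongs to the same series and was not analysed here. Each peak is 500 bp long and carries no height or score.

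An intron is transcribed with its gene and then removed from the RNA. In long neuronal genes introns make up nearly all of the gene, and the sites that open in them can be enhancers, alternative promoters, or sites bound by architectural proteins such as CTCF, which holds loop anchors. DNs of the VTA make dopamine and send long axons to the forebrain, and their identity is maintained by factors such as *Lmx1b*, *Foxa2* and *Nr4a2*.

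Sequences of 100 bp within deep intronic peaks are shown for 5 of the consensus motifs searched, so that the letters behind the motif counts can be seen. They were read from GRCm38 on the strand of the match, and capitals mark the match. They are motifs whose ratio of share in members to share in flanks was higher than that of the same letters read backwards, or whose letters read backwards matched no member. Read backwards, the CTCF, NFI and Ascl letters require the pair CG, which the forward letters do not, so for these motifs the rule shows little. Each sequence holds the match nearest to a peak centre within the genes named here. The CTCF sequence lies in intron 11 of 36 of *Slit1*, a secreted repellent of axons, at chr19:41647110-41647209 on the plus strand, and its peak centre was 121 bp from an exon edge. The NR4A sequence lies in intron 3 of 8 of *Lsamp*, a cell adhesion gene, at chr16:41652294-41652393 on the minus strand, 118814 bp from the nearest exon. The NFI sequence lies in intron 5 of 15 of *Cdh4*, a classical cadherin, at chr2:179843142-179843241 on the plus strand. The E-box sequence of the type bound by Ascl factors lies in intron 6 of 24 of *Camta1*, a calmodulin-binding transcription activator, at chr4:151239463-151239562 on the minus strand. The forkhead sequence lies in intron 2 of 9 of *Arhgap24*, a GTPase-activating protein, at chr5:102578076-102578175 on the plus strand.
Slit1 with CTCF: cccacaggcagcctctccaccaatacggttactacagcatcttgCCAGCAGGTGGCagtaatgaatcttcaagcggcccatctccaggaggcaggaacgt
Lsamp with NR4A: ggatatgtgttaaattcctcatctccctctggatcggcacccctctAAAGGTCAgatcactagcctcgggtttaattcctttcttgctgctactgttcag
Cdh4 with NFI: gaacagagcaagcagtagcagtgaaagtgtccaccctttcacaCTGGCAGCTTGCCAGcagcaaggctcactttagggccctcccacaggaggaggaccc
Camta1 with Ascl E-box: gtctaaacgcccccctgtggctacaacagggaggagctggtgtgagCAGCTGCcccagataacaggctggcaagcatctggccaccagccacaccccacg
Arhgap24 with forkhead: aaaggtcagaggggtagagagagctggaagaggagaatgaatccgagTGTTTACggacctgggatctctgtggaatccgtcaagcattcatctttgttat

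Markers of DNs and of other cells were looked up in the whole list. Every one of 10 DN markers had peaks over its gene body or the 2 kb upstream, from 3 at *Slc6a3* and *Pitx3* to 31 at *Lmx1b*. The study identified the DN cluster by higher gene scores of *Th* and checked it with further markers such as *Lmx1b*, *Foxa2*, *Foxa1* and *Slc6a3*. Peaks at these 5 markers are therefore tied to how the nuclei were chosen and labelled, and are no independent check of the label. The other 5, *Pitx3*, *Nr4a2*, *Ddc*, *Slc18a2* and *En1*, had 3 to 18 peaks. The share of all genes with a peak over the same span was not counted. Peaks at genes were common, and 1794 of the 2257 genes with at least 20 kb of deep intronic sequence (79.5%) had one within 1 kb of a start. None of 4 oligodendrocyte markers had a peak. Of the astrocyte markers *Aldh1l1* had 5 peaks, *Gfap* 2 and *Slc1a3* 0, and of the microglial markers *Cx3cr1* had 9 while *Csf1r* and *Aif1* had 0. The part of other cell types in the deep intronic peaks was not tested. *Lmx1b* was the one DN marker with deep intronic peaks, and the other 9 DN markers had no sequence that met the rule.

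Deep intronic sequence held more peaks per Mb than intergenic sequence that also lay more than 50 kb from every protein-coding start. The sequence that met the rule summed to 365.869 Mb, or 15.27% of the known autosomal sequence, and held 16.7 peaks per Mb (95% exact Poisson interval 16.3 to 17.2). Distal intergenic peaks, which lie outside protein-coding genes and exons and also more than 50 kb from every protein-coding start, numbered 5962 in 922.147 Mb, or 6.47 per Mb (6.30 to 6.63). The density inside genes was 2.59 times that outside (2.50 to 2.68), with no match for distance beyond the 50 kb minimum. In bins of distance, the last of them without an upper limit, the ratio was 1.68 to 2.65. The deep intronic density exceeded the intergenic density on each of the 19 autosomes, from 1.93 times on chromosome 9 to 3.17 times on chromosome 11. Intronic sequence from 1 to 50 kb of a start held 27.3 peaks per Mb (26.9 to 27.8), which is 1.63 times the deep intronic value (1.58 to 1.68). These intervals treat peaks as independent and cover counting error only.

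**Figure D1:**
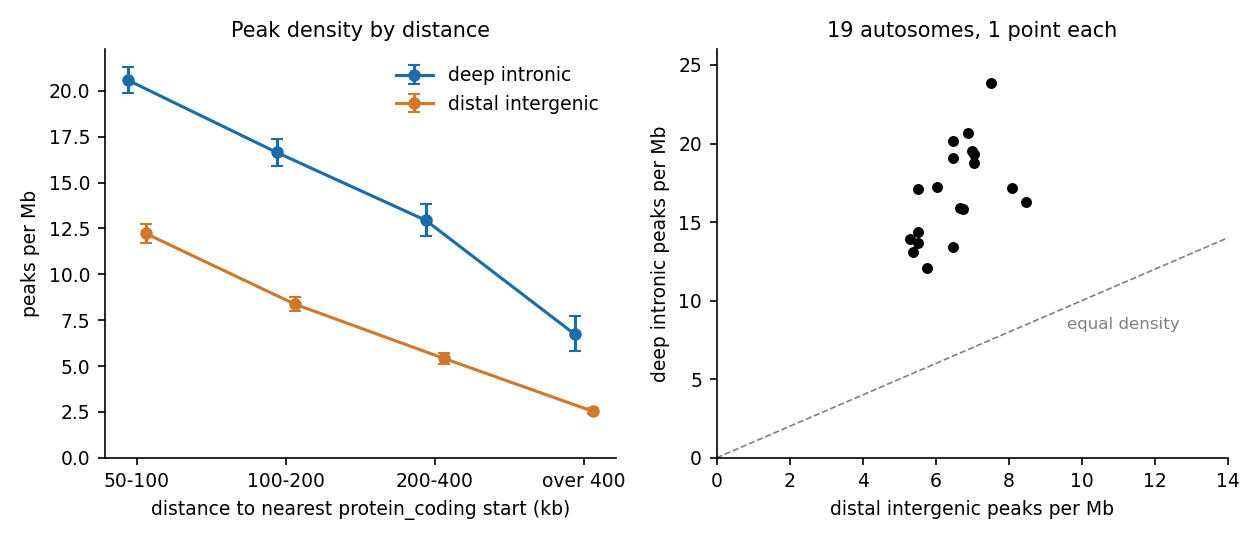
Peaks per Mb (y axis) against the distance to the nearest protein-coding start in kb (x axis, left) for deep intronic and distal intergenic peaks, with 95% exact Poisson intervals, and deep intronic against distal intergenic peaks per Mb on each of the 19 autosomes (right, with a dashed line of equal density). Deep intronic density fell from 20.6 to 6.73 per Mb over the 4 bins and stayed above the intergenic density in each, and all 19 autosomes lie above the line.

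The density fell with distance in both settings. In proportion it fell less inside genes, while in peaks per Mb it fell more there. Between 50 and 100 kb from a start, deep intronic sequence held 20.6 peaks per Mb (19.9 to 21.3) and intergenic sequence 12.2 (11.7 to 12.7). Beyond 400 kb the values were 6.73 (5.84 to 7.73) and 2.54 (2.36 to 2.72). This last bin has no upper limit and held 30.0 Mb inside genes and 310 Mb outside, so distances within it may differ between the classes. The ratio was 1.68 (1.59 to 1.78) from 50 to 100 kb, 1.99 (1.86 to 2.12) from 100 to 200 kb, 2.39 (2.19 to 2.60) from 200 to 400 kb and 2.65 (2.26 to 3.10) beyond. The intervals of the nearest and the farthest bins did not overlap.

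GC content moved with the density. In 10-kb windows with less than 38% GC, deep intronic sequence held 4.10 peaks per Mb (3.67 to 4.58), and in windows above 45% GC it held 43.6 (42.1 to 45.3). Intergenic sequence held 1.75 (1.60 to 1.91) and 24.8 (23.8 to 25.8) in the same bands. The ratio between the classes was 2.34 (2.03 to 2.70) in the lowest band and 1.76 (1.67 to 1.86) in the highest, so it lay above 1 in all 5 bands and was smaller where GC was high. The part of mappability and of the calling of peaks in these densities was not tested.

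Pooled over host genes, the density was lowest in the part nearest the 5′ end. When each gene was cut into 3 parts of equal length from its 5′ end, the deep intronic sequence of the first part held 13.5 peaks per Mb (12.7 to 14.3), the middle part 16.7 (16.1 to 17.4) and the last part 18.5 (17.8 to 19.2). The first part counts mainly longer genes, with 76.6 Mb against 144 and 140 Mb in the other parts, and longer genes had lower densities, so these values do not describe a trend within each gene. The median distance of a member from a start was 99.2 kb, with quartiles at 68.4 and 163 kb. The farthest, in *Ptprd*, a receptor tyrosine phosphatase of the synapse, lay 1518 kb from the nearest protein-coding start of the basic annotation at chr4:78111691-78112190. All 7 members of *Ptprd* lay in its gene body but outside its protein-coding transcripts in that annotation, which do not reach these peaks, so their distances hold for the basic annotation only. At the threshold itself the last peaks left out were in *Pde2a* at 49993 bp, *Prkar1b* at 49975 bp and *Ccdc88c* at 49967 bp, and among the first ones kept were those in *Otof* at 50043 bp, *Col6a6* at 50051 bp and *Msra* at 50066 bp.

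Members were placed by intron and by distance to exons. The share of all deep intronic sequence in the same classes was not counted, so these values describe the members only and may follow from the rule. Of the 5923 members covered by a protein-coding transcript of their host, 818 (13.8%) lay in the first intron, 971 (16.4%) in the second, 744 (12.6%) in the next and 3390 (57.2%) in later ones. The median length of these introns was 52.9 kb, and 3083 members (52.1%) lay in introns of 50 kb or more. The median distance to the nearest exon edge was 6466 bp. Of the members, 363 (5.93%) had their centre within 250 bp of an exon edge, so that the peak reached into the exon, and 2534 (41.4%) lay more than 10 kb from any exon. The remaining 203 members (3.31%) lay in the annotated gene body but outside every protein-coding transcript of the gene, and 39 of these were in *Gse1*.

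Few members stood at other annotated starts, though the share of deep intronic sequence as close to such starts was not counted. A noncoding transcript began within 1 kb of 123 members (2.01%, 1.67 to 2.39), and a further transcript of a protein-coding gene, given only in the full annotation, within 1 kb of 246 (4.02%, 3.54 to 4.54). The other 5772 members (94.2%) were over 1 kb from all of these. Sequence that met the usual marks of a CpG island, a GC content of at least 50% and an observed to expected CpG ratio of at least 0.6, was found in 86 members (1.40%) against 70.2% of promoter peaks. Of these 86, 53 (61.6%) lay within 1 kb of a noncoding start or of a further start of a protein-coding gene. The most GC-rich were in *Tcf20* with 84.8% GC, 32 bp from such a start, and in *Plcb4*, a phospholipase C, with 81.2% GC, 268 bp from one.

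Deep intronic peaks were spread over many genes. Of 2257 autosomal protein-coding genes with at least 20 kb of deep intronic sequence, 1396 held at least 1 member, which is 61.9% (59.8 to 63.9). The other 861 held none. The share rose with the length of deep intronic sequence, from 37.4% of genes with 20 to 50 kb through 57.6% at 50 to 100 kb, 74.7% at 100 to 200 kb and 86.4% at 200 to 400 kb to 92.8% at 400 kb or more. In each of the 11 gene lists described here the median length was above the 81.6 kb of all 2257 genes, so their shares are to be read against these length bands and not against 61.9% alone. Each list spans several bands, so the band of its median length is a rough guide only. Among the 1396 genes with a member 454 held exactly 1, 398 held at least 5, 148 at least 10 and 34 at least 20. The 10 genes with most held 406 members (6.63%), the first 100 held 1949 (31.8%) and the first 500 held 4430 (72.3%). The median density over all 2257 genes was 8.52 per Mb, with quartiles at 0 and 27.2. The start nearest to a member belonged to the host gene for 4232 members (69.1%) and to another gene for 1894 (30.9%).

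Genes open at their own start held more of them. A peak within 1 kb of a protein-coding start of the gene was present for 1794 of the 2257 genes, and 1184 of these held a member (95% interval of the share 63.8 to 68.2%) with a pooled density of 18.3 per Mb. Of the 463 genes without such a peak 212 held a member (45.8%, 41.2 to 50.4), with 8.58 per Mb. The pooled density was higher with a promoter peak in every band of deep intronic length, from 26.6 against 13.6 per Mb at 20 to 50 kb to 12.3 against 4.69 per Mb at 400 kb or more. The sequence counted lay more than 50 kb from the start, so the promoter peak itself was in none of these counts.

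*Ptprn2*, a receptor-type phosphatase of dense-core vesicles, held most members. It had 75 in 734 kb of deep intronic sequence, or 102 per Mb (80.4 to 128), spread over 14 of its 22 introns with 19 in intron 2. *Dscam*, an immunoglobulin-superfamily adhesion molecule, had 57 in 516 kb, or 110 per Mb (83.6 to 143), in 15 of 32 introns. *Celf4*, an RNA-binding protein of neurons, had 48, of which 33 lay in its second intron of 142 kb, the intron with most members of all. *Dpp6*, an auxiliary subunit of potassium channels, had 35 and *Cdh13*, a cadherin without an intracellular part, 34. *Cacna1a*, the pore of P/Q-type calcium channels, had 31, *Gabbr2*, a subunit of the GABA-B receptor, and *Zfhx3*, a zinc finger homeobox factor, 29 each, and *Ksr2*, a scaffold of Ras signalling, 28.

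Overlapping annotation touched *Gm20388* and *Gse1*. *Gm20388*, a predicted gene of 4435 kb on chromosome 8, was counted with 64 members and spans other genes, among them *Gse1* with 39. The 87 members that lay in more than 1 gene body were counted for each of their genes. All 39 members of *Gse1* lay in its gene body but outside its protein-coding transcripts in the basic annotation.

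**Figure D2:**
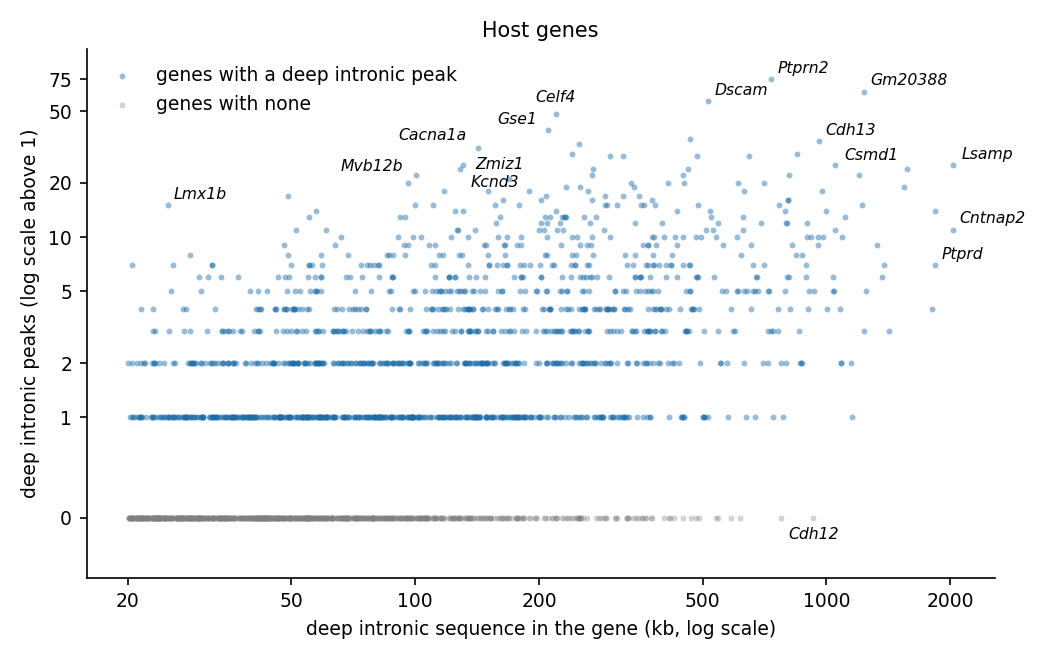
Number of deep intronic peaks (y axis, log scale above 1) against the deep intronic sequence in each gene in kb (x axis, log scale) for the 2257 genes with at least 20 kb of it, 1 point a gene. Genes of the same length ranged widely in number, with *Ptprn2* highest at 75, *Lmx1b* holding 15 in 25.0 kb and *Cdh12* holding 0 in 929 kb.

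Ranked by density, other genes came first. Among the 974 genes with at least 100 kb of deep intronic sequence the median density was 9.81 per Mb, with quartiles at 4.02 and 22.3. *Mvb12b*, a subunit of the ESCRT-I sorting complex, stood highest with 219 per Mb (137 to 331), next to *Cacna1a* with 218 (148 to 310) and *Celf4* with 218 (160 to 289), and the intervals of these 3 overlapped almost entirely. *Zmiz1*, a coregulator of transcription, had 191 per Mb, *Kcnd3*, a pore subunit of A-type potassium channels, 186, *Gse1* 186, *Eif4g3*, a translation initiation factor, 153, *Cacna1b*, the pore of N-type calcium channels, 150 and *Usp29* 136. Over the 974 genes the density rose with the GC content of the deep intronic sequence (Spearman correlation 0.58, Pearson correlation 0.54, across genes) and its correlation with length was -0.08 (Spearman) and -0.14 (Pearson). Pooled over genes the density fell from 20.6 per Mb at 100 to 200 kb of deep intronic sequence to 11.4 at 400 kb or more. Genes are not independent replicates and share 1 list.

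Some long genes held no member. *Cdh12*, a classical cadherin, had no member in 929 kb, which allows a density of up to 3.23 per Mb when the limit for a count of 0 is set at 3 counts, as for the genes that follow. *Sntg1* had none in 773 kb (up to 3.88 per Mb), and *Grik2*, a kainate receptor subunit, none in 615 kb (up to 4.87 per Mb). *Cntnap5c*, *Galnt13*, *Fgf14*, *Mgat4c* and *Iqcm* likewise had none in 482 to 586 kb. The deep intronic sequence of these 8 genes had 35.3 to 38.8% GC, against a median of 41.9% over all eligible genes. *Grik2* had 3 peaks in its gene body and *Fgf14*, a modulator of sodium channels, 7, none of them deep intronic, and *Cdh12*, *Cntnap5c* and *Iqcm* had no peak in their gene bodies.

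Members often stood close together. No other member of the same gene lay within 10 kb of 3087 members (50.4%), and 405 runs of 3 or more held 1793 members (29.3%). The longest run had 26 members over 82.0 kb in *Gse1* at chr8:120264830-120346815. *Gnao1*, the alpha subunit of the G protein Go, had a run of 19 over 68.7 kb at chr8:93884269-93953011. *Rab11fip4*, an effector of Rab11, had 17 over 47.7 kb at chr11:79644970-79692629, *Celf4* 17 over 73.2 kb and *Mvb12b* 16 over 39.9 kb at chr2:33733869-33773739. Members in such runs had a mean GC content of 49.5% ± 5.34 (SD, n = 1793 peaks), and those that stood alone 45.5% ± 5.59 (n = 3087 peaks).

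**Figure D3:**
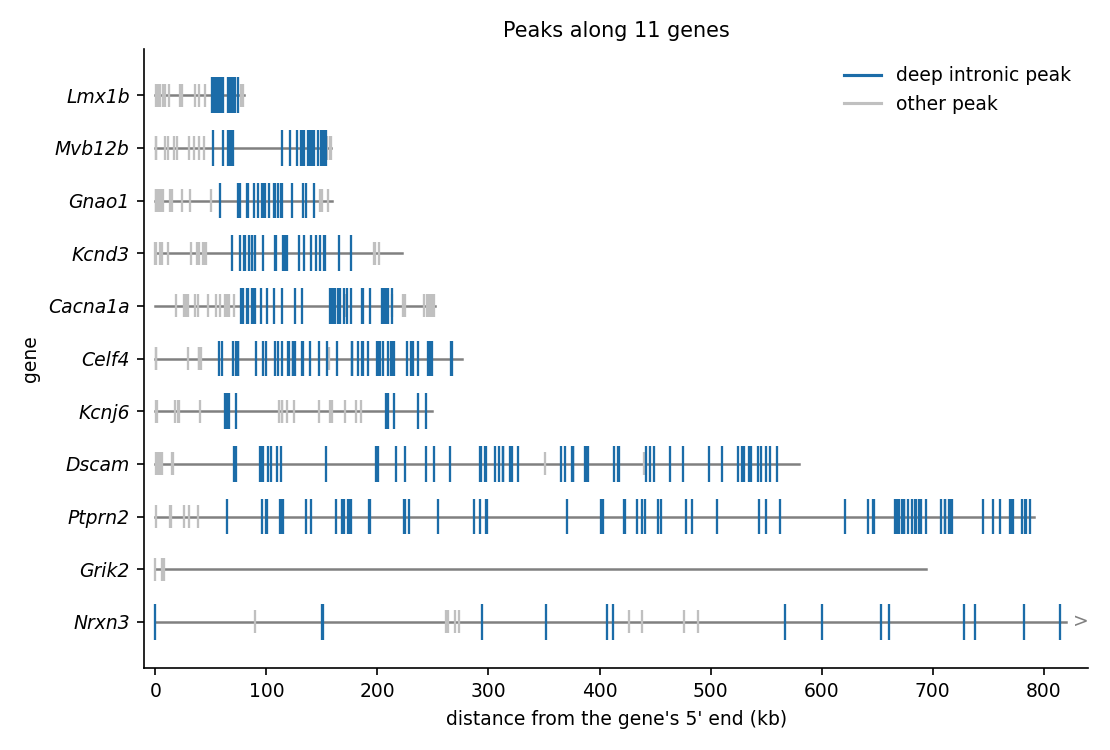
Peaks along 11 genes, each drawn from its 5′ end to its 3′ end against the distance from the 5′ end in kb (x axis), with deep intronic peaks as long blue ticks and other peaks as short grey ticks; *Nrxn3* runs on beyond the axis. The 15 members of *Lmx1b* fill its last stretch, *Ptprn2* and *Dscam* carry members over most of their length, and *Grik2* has its 3 peaks near the 5′ end and no member.

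Genes of DN identity and physiology were counted as a list. Of 37 such genes 13 had at least 20 kb of deep intronic sequence, against 2257 of all 20807 autosomal protein-coding genes. Of the 13, 12 held a member, with a median of 165 kb of deep intronic sequence, where 74.7% of all eligible genes held one. Their median density was 37.6 per Mb against 8.52 over all eligible genes, and 8 of the 13 exceeded that median. Without *Lmx1b*, an alternative chosen after seeing the data, the median was 25.7 per Mb, below the 26.9 of calcium, sodium, HCN and TRP channels. Pooled over the list the density was 23.4 per Mb, below the 36.1 of calcium, sodium, HCN and TRP channels and the 31.9 of RNA-binding protein genes. *Lmx1b*, a LIM homeodomain factor required for midbrain DNs, held 15 members in 25.0 kb, or 600 per Mb (336 to 989), the highest value named here. They spanned 24.0 kb at chr2:33565740-33589780, 13 of them in intron 2 of 7, with a median gap of 1.04 kb to the next peak. *Lmx1b* was among the markers with which the study checked the DN cluster identified by *Th*, so its accessibility is no independent check of the label. *Cacna1d*, a calcium channel used in pacemaking, held 19 (75.5 per Mb), *Ntn1*, which encodes the guidance cue netrin, 10 (81.6 per Mb), *Kcnn3*, a calcium-activated potassium channel, 9 (95.8 per Mb), and *Kcnj6*, a potassium channel opened by the dopamine autoreceptor, 9 (93.7 per Mb). The netrin receptor gene *Dcc* held 5 in 1038 kb (4.82 per Mb). The deep intronic sequence of this list had a median GC content of 45.1% against 41.9% over all eligible genes.

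Ion channel genes were counted in 2 lists. In the list of calcium, sodium, HCN and TRP channels 19 of 21 genes held a member (90.5%), at a median of 276 kb of deep intronic sequence, where 86.4% of all eligible genes held one. In this list 17 genes exceeded the all-gene median density, and the median density was 26.9 per Mb at a median GC content of 41.0%. *Cacna1a* held 31 members, *Cacna2d3*, an auxiliary subunit, 20, *Cacna1d* 19, and *Cacna1b*, *Cacna1c* and *Cacna1e* 15 each. The auxiliary subunit genes *Cacna2d2*, *Cacna2d1*, *Cacnb2* and *Cacnb4* held 4 to 6. Per Mb the *Cacna1* genes ranged from 48.6 in *Cacna1e* to 218 in *Cacna1a*. The auxiliary genes had 178 (*Cacna2d2*, in 33.8 kb), 78.4 (*Cacnb4*, in 51.0 kb), 32.8 (*Cacna2d3*), 24.1 (*Cacnb2*) and 13.3 (*Cacna2d1*). The sodium channel gene *Scn2a* and the cation channel gene *Trpc4* held none. Of 20 potassium channel genes 16 held a member (80%), at a median of 245 kb, where 86.4% of all eligible genes held one, and the median density was 10.2 per Mb. *Kcnd3* had 24, all in its second intron, and *Kcnma1*, which encodes the large-conductance calcium-activated channel, 20. *Kcnh5*, *Kcnh7*, *Kcnj3* and *Kcnt2* held none, in 108 to 415 kb of sequence.

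Neurotransmitter receptors were counted by transmitter. For glutamate 15 of 17 genes held a member at a median of 309 kb of deep intronic sequence, where the share of all eligible genes was 86.4%, with a median of 9.70 per Mb, led by *Grid1* with 20, *Grin2a* with 15 and *Grik4* with 10, and *Grik2* and *Grin3a* held none. For GABA and glycine 4 of 8 held a member at a median of 119 kb, where the share of all eligible genes was 74.7%, with a median of 2.78 per Mb, and none exceeded the all-gene median. *Gabrg3* had 5, *Gabrb1* 3 and *Gabrb2* 1. *Gabra2*, *Gabrg1* and *Glra1* had 0, in 36.7 to 82.9 kb of sequence. The median GC content was 38.8% in the first list and 37.7% in the second. With 8 genes the share of 50% has an exact binomial interval of 15.7 to 84.3%.

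Adhesion genes held many members at a density close to that of all genes. In the list of the neurexin family and other adhesion genes 41 of 44 held a member and 537 members lay in 37.6 Mb, at a median of 804 kb of deep intronic sequence per gene, a length at which 92.8% of all eligible genes held one, with a median density of 8.45 per Mb against 8.52 over all eligible genes. After *Ptprn2*, *Dscam* and *Cdh13* came *Lsamp* and *Tenm2* with 25 each. *Nrxn3*, a presynaptic organiser, had 22 in 1198 kb (18.4 per Mb) and *Cntnap2* 11 in 2029 kb (5.42 per Mb). *Cdh8*, *Cdh12* and *Cntn3* had none. Of 28 axon guidance genes 23 held a member (82.1%), at a median of 283 kb of deep intronic sequence, where the share of all eligible genes was 86.4%. The most were in *Plxna4*, a semaphorin coreceptor, with 16, *Slit3* with 11, *Ntn1* with 10 and *Ephb2* with 9. *Epha7*, *Nrp1*, *Sema3a*, *Sema3c* and *Sema3d* had none.

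Regulators of transcription, RNA and cyclic nucleotides came next. Among transcription factors 30 of 43 held a member (69.8%), at a median of 226 kb, where the share of all eligible genes was 86.4%. Lengths in this list ran from 22.9 to 847 kb, so that share does not stand for all its genes. Those with many were *Zfhx3* at 29, *Camta1* at 18 and *Myt1l*, a zinc finger factor of neurons, at 16. The 13 without one were *Bcl11a*, *Esrrg*, *Glis3*, *Meis1*, *Meis2*, *Nr3c2*, *Rorb*, *Runx1t1*, *St18*, *Tcf12*, *Tcf7l2*, *Thrb* and *Zeb2*. Of 14 RNA-binding protein genes 11 held a member (78.6%), at a median of 171 kb, where the share of all eligible genes was 74.7%. *Celf4* had 48, *Msi2* 28, *Rbfox3*, which encodes the neuronal antigen NeuN, 19 and *Rbms3* 10, while *Elavl4*, *Nova1* and *Qk* had none. Phosphodiesterase and adenylyl cyclase genes held a member in 13 of 14 (92.9%), at a median of 155 kb, where the share of all eligible genes was 74.7%, with *Adcy5*, a cyclase coupled to dopamine receptors, at 13 (138 per Mb, 73.4 to 236), *Pde4d* at 12, *Pde8b* at 5 and *Pde4b* and *Pde7b* at 4, and *Pde5a* at 0. Of 16 glial and microglial genes 10 held a member, which is 62.5% (35.4 to 84.8), at a median of 131 kb, where the share of all eligible genes was 74.7%, and the median density was 7.71 per Mb. *Plcb1* held 11, *Rgs6* 10, *Gpc5* 7 and *Tmem108* 5, and *Apbb1ip*, *Dock10*, *Enpp2*, *Glis3*, *Ptprz1* and *Rnf220* held 0. The lists were drawn up with earlier results of these data known, and some genes stand in more than 1 of them.

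**Figure D4:**
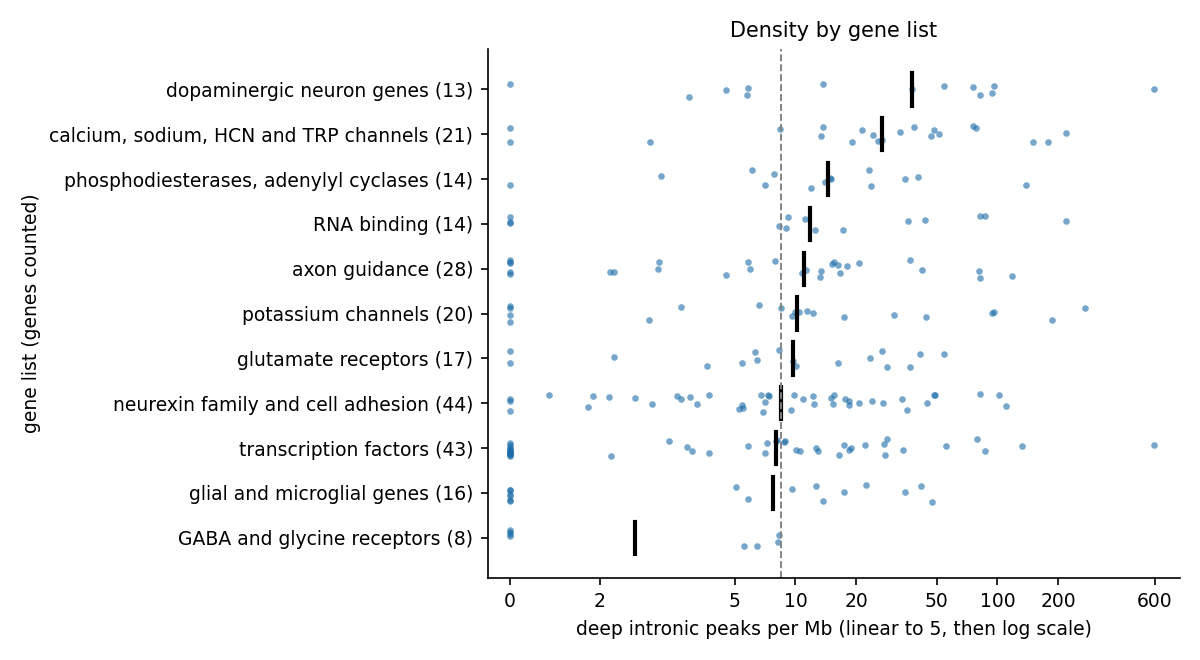
Deep intronic peaks per Mb of deep intronic sequence (x axis, linear to 5 and log scale above) for each gene of 11 lists with at least 20 kb of it (number in parentheses), 1 point a gene, with the median of each list as a black bar and the median of all 2257 genes, 8.52, as a dashed line. The median of DN genes is 37.6, or 25.7 without *Lmx1b*, and GABA and glycine receptors have the lowest at 2.78, and the 8 points of the latter all lie below the dashed line.

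In sequence, members were richer in GC and poorer in repeats than their flanks. Their mean GC content was 47.1% ± 5.81 (SD, n = 6126 peaks), and that of windows of 500 bp centred 2 kb away on either side and free of peaks 44.4% ± 5.94 (n = 11457 windows). The difference of 2.76 points (2.58 to 2.94) was smaller than the SD over peaks. Proximal intronic peaks had 50.5% ± 6.08 and distal intergenic peaks 46.6% ± 6.55. Lower-case bases, which mark repeats in the reference, made up 11.6% of members and 21.6% of flanks. Members from 50 to 100 kb had 48.1% GC and those beyond 400 kb 43.5%.

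CTCF matches were far more frequent in members than in flanks. The CTCF consensus was found in 279 members, or 4.55% (4.05 to 5.11), and in 0.314% of flanks, a ratio of 14.5 (10.2 to 21.1). With 1 mismatch allowed the ratio was 3.30 (2.95 to 3.68). The consensus letters read backwards gave 0.0326% and 0.0262%, on 2 members and 3 flanks. Read so, they require a CpG that the consensus does not. The median observed to expected CpG ratio was 0.22 in members and 0.18 in flanks, so this is no full control for base composition. The share of members with the consensus was lower than in proximal intronic peaks at 6.16% and distal intergenic peaks at 6.27%, whose intervals did not overlap that of members. It was higher than the 1.26% of promoter peaks. The 279 members lay in 234 genes, 197 of them with 1. Within 50 bp of the peak centre there were 403 matches per Mb, and from 500 to 1000 bp away 7.67 per Mb. A match stood in 5.18% of members alone (4.43 to 6.02) and in 3.29% of those in runs of 3 or more (2.51 to 4.22). It read in the direction of the host gene in 124 members and against it in 155, a share of 44.4% (38.5 to 50.5).

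Other motifs marked smaller groups or smaller differences. The RFX palindrome was found in 23 members (0.375%, 0.238 to 0.563) and in 0.00873% of flanks, which is 1 window, so that the ratio rests on that window. Its 23 members included *Kcnj6* and *Ank3*, which encodes the ankyrin of the axon initial segment, and 2 lay in *Dgkg*. The NR4A motif AAAGGTCA, an element bound by *Nr4a2* and its relatives, was found in 6.37% of members and 2.71% of flanks, a ratio of 2.35 against 0.93 for the letters read backwards. Distal intergenic peaks had a share of 7.46% (6.81 to 8.16). The NR4A share of members was 5.29% (4.53 to 6.14) from 50 to 100 kb of a start and 11.4% (7.36 to 16.6) beyond 400 kb, where it rests on 23 of 202 members. Flanks were not counted by distance, and GC content was lower in the far bin. The forkhead share went the other way, from 10.4% (9.34 to 11.5) to 6.93% (3.84 to 11.4). The Ascl E-box CAGCTGC was found in 17.5% of members and 10.0% of flanks, a ratio of 1.75, and the forkhead motif TGTTTAC in 11.1% and 7.23%, a ratio of 1.54. Read backwards the first gave 0.82, on 7 members and 16 flanks, and the second 1.05. The letters of the first read backwards hold CpGs that the motif lacks, so its 0.82 is a weak comparison. The Neurod E-box CAGATGG gave 1.24 and the octamer ATGCAAAT 1.33. The NFI motif was found in 44 members (0.718%, 0.522 to 0.963) and in 0.314% of flanks, a ratio of 2.29. Its letters read backwards matched 0 members and 0 flanks, so they give no ratio to set beside it.

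For some motifs the letters read backwards gave a like ratio. The GC box GGGGCGG gave a ratio of 1.71 and read backwards 1.79, and the Egr motif GCGTGGGCG 2.18 and 2.24, which rest on 7 members and 6 flanks, and read backwards on 6 members and 5 flanks. The homeobox motif TAATTA was rarer in members than in flanks, 11.3% against 14.6%, and read backwards its ratio was the same to 2 digits at 0.78. The forkhead motif read in the direction of the host gene in 372 members and against it in 290, a share of 56.2% (52.3 to 60.0), and the same letters read backwards gave 58.6% (54.8 to 62.3). A match is a string of letters and not a bound site.

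**Figure D5:**
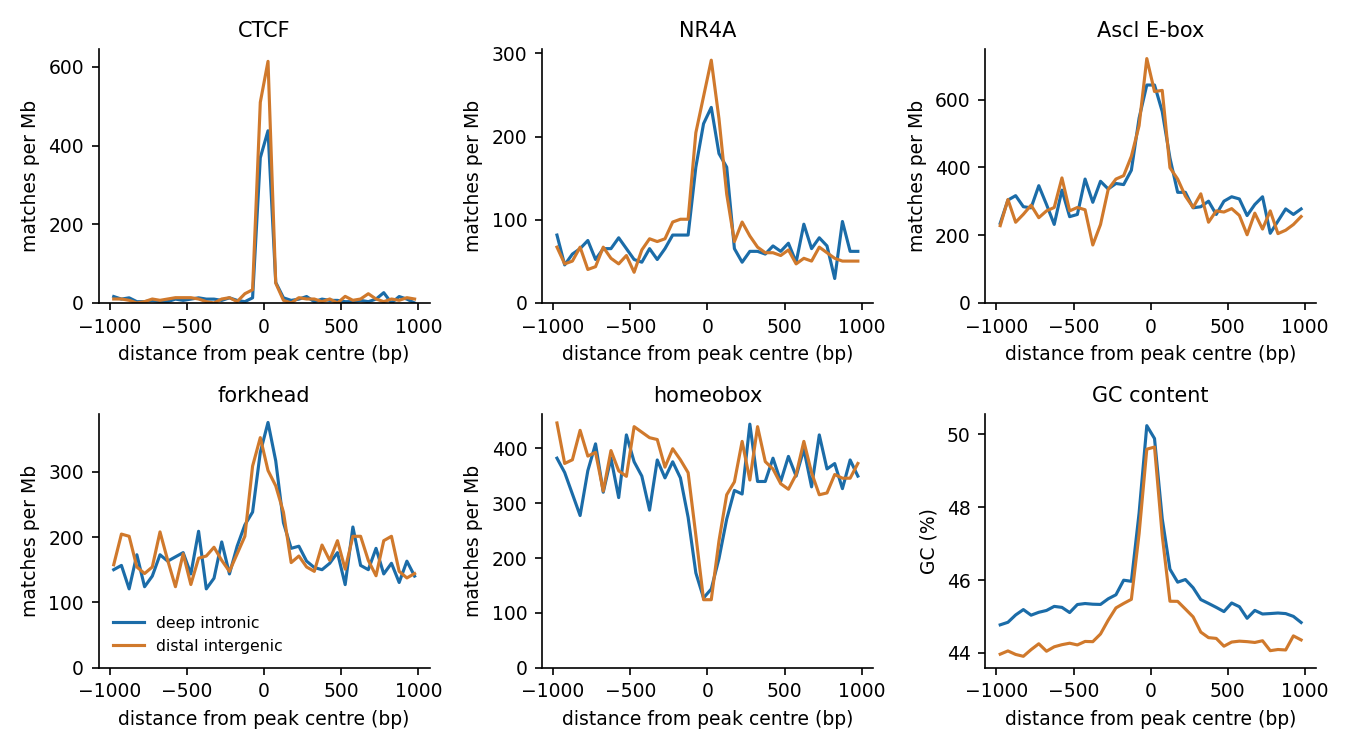
Matches per Mb (y axes) of 5 motifs and GC content in percent (lower right) in bins of 50 bp against the distance from the peak centre in bp (x axes), for deep intronic and distal intergenic peaks. CTCF, NR4A, Ascl E-box and forkhead matches peak at the centre in both classes, with CTCF lower in deep intronic peaks, while homeobox matches dip where GC content is highest.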

How the data were processed

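The authors mapped snATAC-seq reads of 2 VTA libraries to mm10 with Cell Ranger, removed doublets and low-quality nuclei and clustered nuclei with ArchR, and called peaks reproducible between pseudobulk replicates of the DN cluster, merging overlaps step by step. The deposited file used here is 1 list of positions for both libraries together, without signal or depth, so no test between samples was made. Reads and signal tracks were not analysed here, and an absent peak means only that none was called. The study's methods describe a further filter on the share of nuclei with a peak, and whether it was applied to the list is not known. Per the file, starts were read as counted from 0 and printed from 1.

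Peaks were placed by their centre on GENCODE M21 basic gene bodies, exons of all genes and starts of protein_coding transcripts. Chromosome sequences came from GRCm38, of which mm10 is a copy. Intervals are exact binomial or Poisson at 95%, and the limit for a gene with no member is 3 counts over its deep intronic length. Consensus letters for 19 motifs were searched on both strands without mismatch. Where gene bodies overlap, the shortest names the member. The functions were tested on simulated peaks and planted motifs. The members, gene lists and motifs were chosen with earlier results of these data known. Named genes are the 12 with most members, the 10 densest with at least 100 kb of deep intronic sequence, the 8 longest without a member, up to 4 per list with most members and those with none, the 5 longest runs, the neighbours of the threshold and the genes whose sequence is shown. *Dcc*, *Nrxn3*, *Cntnap2*, *Cacna1c*, *Cacna1e*, *Cacna2d1*, *Cacna2d2*, *Cacnb2*, *Cacnb4*, *Tcf20*, *Plcb4*, *Dgkg*, *Ank3* and the gene of the farthest member were picked after their values were seen. Some genes that this rule names are not reported here. Intervals came from scipy 1.17.1, tables from pandas 2.3.3 and numpy 2.4.6 under Python 3.11.15, and plots from matplotlib 3.10.9.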

Additional observations from a re-analysis of the deposited data

How the results depend on the processing

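Of 65 values under alternatives 46 stayed within the counting interval of the reported value (within 1.5 times for the number of peaks), 19 moved and 0 reversed. The number of deep intronic peaks was 9877 beyond 25 kb, 3027 beyond 100 kb and 3030 when starts of genes of any type were kept away, where fewer positions qualify by construction at the larger distance and with more starts. The density ratio to distal intergenic peaks was 2.45 beyond 25 kb, 2.79 beyond 100 kb, 3.03 with starts of genes of any type, 2.47 with all transcripts of the annotation and 2.45 without the 10 genes with most members. Within bands of GC content it was 2.34, 2.29, 2.02, 2.01 and 1.76 from the lowest to the highest, below the pooled 2.59 in each. The share of eligible genes with a member was 58.6% beyond 25 kb, 69.8% beyond 100 kb, 58.1% with starts of genes of any type and 82.3% among genes with at least 100 kb of deep intronic sequence. The GC difference from flanks was 2.94 points with flanks at 5 kb. The CTCF ratio was 3.30 with 1 mismatch allowed, when 14.8% of members and 4.48% of flanks matched. The cause of these shifts was not tested except where named.

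Starts counted from 1 gave 6127 members. After the data were seen, 3 alternatives were added, of which the DN list without *Lmx1b* is given with that list. Taking the span of protein_coding transcripts as the gene body gave 5967 members, and leaving out *Gm20388* gave 6110, and no value moved under either of these. No paired analysis was possible because both libraries were pooled into 1 list. Only the pooled list was used, which gives no peak heights or depth, so the spread between libraries was not assessed, and short or weak sites may be missing from genes listed with none.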
